A study of Rattus norvegicus with 10 samples.

Results

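The 10 genes described here take part in stress of the endoplasmic reticulum (ER) and in protein folding there: Hspa5, Hsp90b1, Calr, Pdia4, Herpud1, Xbp1, Atf4, Ddit3, Asns and Trib3. They were chosen by gene symbol in the platform annotation, which gave 12 probe sets for these 10 genes, of 15866 probe sets and 10411 named genes on the array. Of the genes, 9 had 1 probe set and Trib3 had 3. RNA of mammary gland number 4 from female Sprague-Dawley rats at postnatal day 50 was hybridized to 10 Affymetrix RAE230 arrays after feeding on purified diets called SPI (4 arrays, replicates 2, 3, 4 and 5), GEN (3 arrays, replicates 1, 3 and 5) and CAS (3 arrays, replicates 1, 2 and 3). The series title names SPI and genistein, and GEN is read here as genistein, an isoflavone of soy known to bind estrogen receptors. From knowledge of such diets and not from the labels, SPI is soy protein isolate and CAS is casein, the diet that serves as the baseline. Each array carried a pool of 2 animals. The protocol made 3 labelled targets from each pool without saying which arrays share one, so the spread behind the p-values may be partly technical.

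The labels call the source epithelial cells, whereas the protocol and design speak of the gland, and the design text also names colon. Of the marker lists, 8 of 9 luminal epithelial genes and 7 of 7 milk genes on the array passed the filter on dim probe sets, and so did 6 of 6 fibroblast genes and 3 of 5 adipocyte genes. The mean log2 signal of the fibroblast genes ran from 11.57 to 13.36 over the 10 arrays, so RNA of stromal genes was present as well. Of the other lists, 4 of 6 basal epithelial, 5 of 5 macrophage, 4 of 7 skeletal muscle and 3 of 3 endothelial genes passed. The one B cell gene on the array, Cd79b, had signals of 14.6 to 100.2, under the filter. In such bulk RNA, fewer cells of a type and less RNA per cell cannot be told apart. The beta-actin 3′/5′ signal ratio, which is high where transcripts are short, was 2.94 to 7.77 on SPI, 2.83 to 5.15 on GEN and 4.06 to 5.04 on CAS. SPI 4 had the highest ratio.

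The ER is where secreted and membrane proteins fold. When unfolded proteins build up, sensors in its membrane start the unfolded protein response: one branch splices the mRNA of Xbp1, another cleaves the transcription factor Atf6, and the branch of the kinase Perk slows translation while favouring Atf4. Atf4 is also made when amino acids are scarce, which is why Asns and Trib3 are read as targets of both kinds of stress. In the mammary gland the pathway is known for its part in the secretory epithelium, and in mice Xbp1 is needed for the expansion of the ER at lactation.

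Several of these genes are known to share promoter elements through which the response acts, and the 250 bases before the transcript start are printed for the 6 genes in which the longer elements were found, to set the shared letters beside signals that varied in different ways. Promoters of all 10 genes were found in the RefSeq table for the GRCr8 build. The letters searched, on both strands, were CCAAT and CCACG with any 9 bases between them (ER stress response element), ATTGG and CCACG with any 1 base between them (its second form), TGACGTGG (unfolded protein response element) and TGATGNAA (C/EBP-ATF response element). The first 2 each hold a CCAAT box, in the second on the opposite strand; CCAAT alone was in 7 of the 10 member windows and 34% of all windows. Capitals mark every match to the 4 elements, not lone CCAAT boxes, and the sequences run 5′ to 3′ on the strand of the gene.
Hspa5: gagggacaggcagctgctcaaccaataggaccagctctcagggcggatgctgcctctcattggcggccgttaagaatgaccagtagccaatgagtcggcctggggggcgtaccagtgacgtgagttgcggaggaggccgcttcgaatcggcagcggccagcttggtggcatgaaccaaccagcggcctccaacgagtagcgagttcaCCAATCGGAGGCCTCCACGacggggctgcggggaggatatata
Hsp90b1: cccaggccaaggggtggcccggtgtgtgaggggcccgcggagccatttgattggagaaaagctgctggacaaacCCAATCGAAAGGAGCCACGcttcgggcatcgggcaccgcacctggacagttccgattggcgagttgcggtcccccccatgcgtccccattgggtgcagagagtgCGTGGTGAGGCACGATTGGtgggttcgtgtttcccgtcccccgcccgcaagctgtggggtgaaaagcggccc
Calr: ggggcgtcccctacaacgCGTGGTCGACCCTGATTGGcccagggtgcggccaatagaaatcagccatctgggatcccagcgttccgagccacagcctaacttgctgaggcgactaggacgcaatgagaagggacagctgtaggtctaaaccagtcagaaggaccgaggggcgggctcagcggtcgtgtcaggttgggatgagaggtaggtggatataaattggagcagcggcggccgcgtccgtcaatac
Xbp1: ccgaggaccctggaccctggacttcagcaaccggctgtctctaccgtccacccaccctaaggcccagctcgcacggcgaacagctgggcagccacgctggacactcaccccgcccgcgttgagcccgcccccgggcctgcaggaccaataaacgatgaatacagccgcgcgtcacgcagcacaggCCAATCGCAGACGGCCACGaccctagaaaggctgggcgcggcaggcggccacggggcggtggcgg
Herpud1: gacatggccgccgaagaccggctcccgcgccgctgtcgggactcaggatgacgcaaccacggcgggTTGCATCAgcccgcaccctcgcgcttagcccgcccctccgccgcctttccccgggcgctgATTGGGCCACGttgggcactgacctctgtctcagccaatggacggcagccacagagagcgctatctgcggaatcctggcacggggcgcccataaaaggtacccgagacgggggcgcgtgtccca
Trib3: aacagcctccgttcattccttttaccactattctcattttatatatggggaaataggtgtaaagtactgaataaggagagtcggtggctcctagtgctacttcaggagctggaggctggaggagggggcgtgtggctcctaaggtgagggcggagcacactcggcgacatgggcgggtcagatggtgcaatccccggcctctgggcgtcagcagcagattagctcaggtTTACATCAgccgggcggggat

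These windows lie at chr3:38452766-38453015 (plus strand) for Hspa5, chr7:23012294-23012543 (minus strand) for Hsp90b1, chr19:40213117-40213366 (plus strand) for Calr, chr14:84604373-84604622 (plus strand) for Xbp1, chr19:10614708-10614957 (minus strand) for Herpud1 and chr3:161275534-161275783 (minus strand) for Trib3. The windows of Herpud1 and Asns (window chr4:36769416-36769665, minus strand) lie inside the annotated spans of these genes (chr19:10604360-10624168 for Herpud1), which start further upstream. The ER stress response element was found in 4 of the 10 members, once each in Hspa5 (bases -43 to -25 from the start), Xbp1 (-65 to -47) and Calr (-232 to -214) and 2 times in Hsp90b1 (-176 to -158 and -72 to -54). It was present in 0.0657% of all 33469 promoter windows. Herpud1 held the second form at -124 to -114, which 0.0418% of windows held. The C/EBP-ATF element was found in Herpud1 (-184 to -177) and Trib3 (-21 to -14) and in 3.4% of all windows. The unfolded protein response element was found in 0 of the 10 members and in 0.52% of windows. The windows of Atf4, Ddit3, Asns and Pdia4, whose genes span chr7:113684681-113686739, chr7:65001695-65006517, chr4:36752061-36769970 and chr4:78134144-78153191, held none of the 4. A match is a stretch of letters, and no binding was measured. The search took exact letters only, so an element that differs from them in any fixed letter would be missed.

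Of the 10 genes, 0 differed between diets at an adjusted p under 0.05 in any of the 3 comparisons (limma, Benjamini-Hochberg over 9520 probe sets), against 0% of all probe sets in each comparison. At an unadjusted p under 0.05 there were 0 members for SPI against CAS, where 4.82% of all probe sets reached it, 1 for GEN against CAS (Hsp90b1, where 5.89% reached it) and 0 for SPI against GEN (7.95%). limma without its intensity trend also called 0 probe sets in each comparison. The standard deviation of log2 signal within diets had a median of 0.33 over the 10 genes and 0.25 over all tested probe sets. Trib3, Herpud1, Atf4 and Hspa5 were highest on SPI 4, while Asns and Pdia4 were lowest there. CAS 3 was the lowest array for 5 of the 10 genes, Hspa5, Hsp90b1, Atf4, Ddit3 and Herpud1. How often all probe sets had their extremes on these arrays was not counted.

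**Figure D1:**
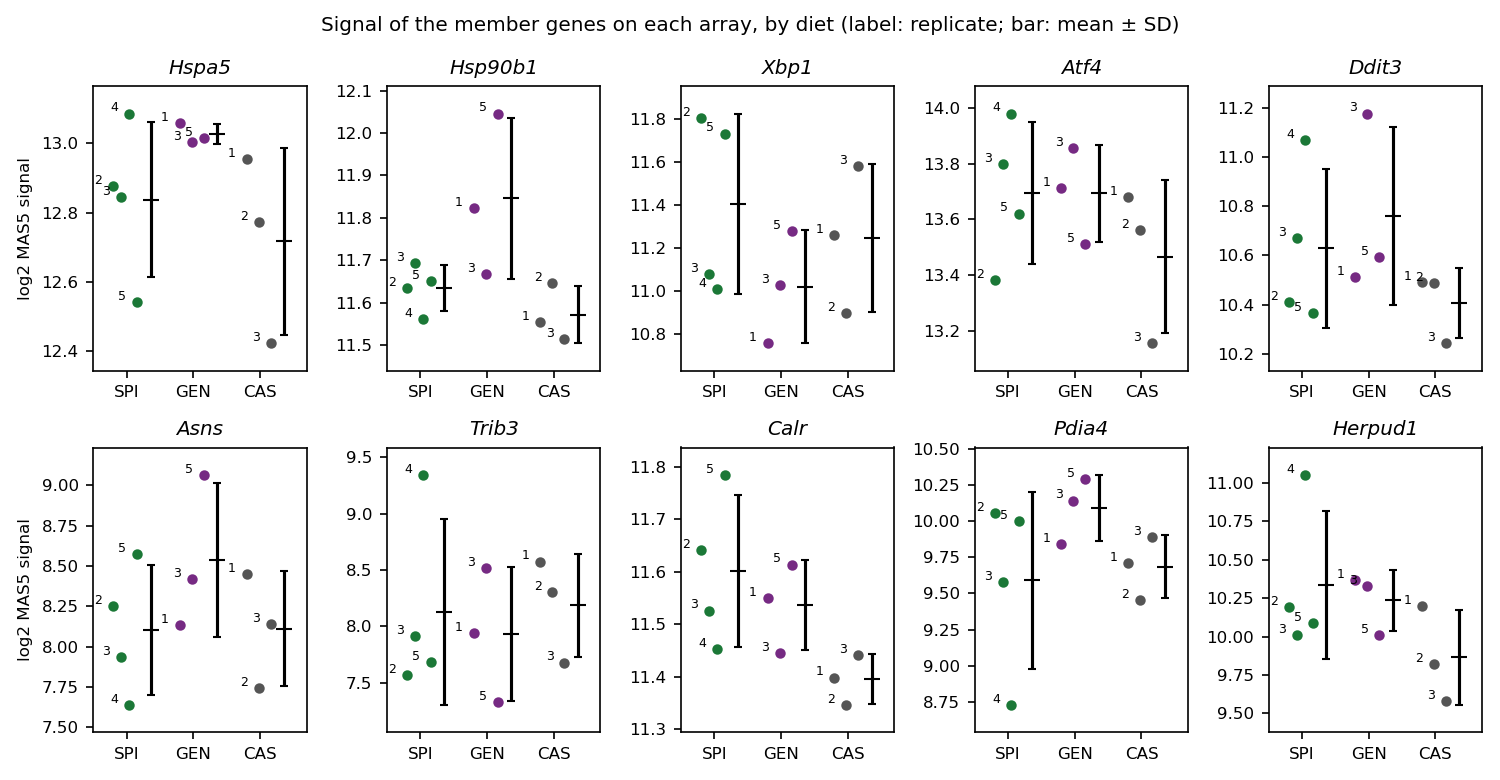
Log2 MAS5 signal of each member gene (brightest probe set) on the 10 arrays, by diet, with a panel for each gene and its own axis; numbers are replicates, and the bar beside each group is its mean ± SD (n = 4 for SPI, 3 for GEN, 3 for CAS). Trib3, Herpud1 and Atf4 had their highest signal on SPI 4, where Asns and Pdia4 had their lowest. On GEN all 3 arrays lay above all 3 CAS arrays for Hspa5, Hsp90b1, Ddit3 and Calr, as for 5.7% of all tested probe sets.

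Among the chaperones, Hspa5, Hsp90b1 and Calr were higher on every GEN array than on every CAS array, by amounts that did not pass the test. Of all tested probe sets, 5.7% were apart in this direction and 11.1% in either direction. Hspa5 (BiP), the Hsp70 chaperone of the ER lumen that also holds the stress sensors inactive, had signals of 7519.7, 7356, 8698 and 5969 on SPI, 8535, 8212 and 8289 on GEN and 7940.0, 7003 and 5490.4 on CAS. The 3 GEN arrays lay within 8212 to 8535, above the highest CAS array, while the SPI arrays reached both above and below them. The log2 difference of Hspa5 was 0.31 ± 0.16 (SE) for GEN against CAS, with a limma adjusted p of 0.825 and a 95% interval of -0.030 to 0.65. CAS 3 was the lowest array, and without it the difference was 0.16. For SPI against CAS the difference was 0.12 ± 0.15, and it turned to -0.027 without CAS 3.

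Hsp90b1 (Grp94), the Hsp90 chaperone of the ER, varied little. Its signals were 3178, 3310.4, 3022 and 3214 on SPI, 3624, 3253 and 4228 on GEN and 3004, 3203 and 2926 on CAS. GEN 5 was the highest of the 10 arrays, and the SPI and CAS arrays overlapped. Hsp90b1 differed by 0.27 ± 0.13 (SE) in log2 signal for GEN against CAS, with an unadjusted p of 0.049 and an adjusted p of 0.825 in limma. The difference was 0.17 without GEN 5. For SPI against CAS it was 0.064 ± 0.12, with a 95% interval of -0.19 to 0.32, and for SPI against GEN -0.21 ± 0.12.

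Calr, the calcium-binding lectin chaperone calreticulin that folds glycoproteins, had the smallest range of the 10 genes, with 1.35-fold between its highest and lowest arrays. Its signals were 3194, 2949, 2802 and 3528 on SPI, 2999.5, 2789 and 3134 on GEN and 2699.5, 2604 and 2781 on CAS. Every SPI array and every GEN array lay above all CAS arrays, the lowest GEN array (2789) by a small margin over the highest CAS array (2781). Calr had a log2 difference of 0.21 ± 0.12 (SE) for SPI against CAS and 0.14 ± 0.13 for GEN against CAS, with limma adjusted p-values of 0.987 and 0.873. Both intervals held 0 (-0.049 to 0.46 for SPI and -0.13 to 0.41 for GEN), and both comparisons share the CAS arrays.

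Pdia4 (ERp72), a disulfide isomerase of the ER, was lowest on SPI 4. Its signals were 1066, 765, 424 and 1024 on SPI, 919, 1131 and 1253 on GEN and 837, 703 and 950.4 on CAS. SPI 4 had 424, and the other 3 SPI arrays lay among those of the other diets. The log2 difference was -0.094 ± 0.27 (SE) for SPI against CAS and -0.50 ± 0.27 for SPI against GEN, and without SPI 4 these were 0.19 and -0.21. For GEN against CAS it was 0.41 ± 0.29, where the lowest GEN array lay below the highest CAS array, and 0.21 with the actin ratio as a covariate. The adjusted p in limma was 0.987, 0.653 and 0.846 for these 3 comparisons.

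Herpud1, an ER membrane protein that helps to remove misfolded proteins, had the largest log2 difference of the 10 genes for SPI against CAS. Its signals were 1168, 1033, 2119.8 and 1089.5 on SPI, 1321, 1288 and 1029 on GEN and 1173, 903 and 767 on CAS. SPI 4 was highest at 2119.8, and the other 3 SPI arrays overlapped the CAS arrays. The log2 difference was 0.47 ± 0.24 (SE), with an unadjusted p of 0.0696 and an adjusted p of 0.987 in limma. Without SPI 4 it was 0.23. For GEN against CAS it was 0.37 ± 0.25, and 0.23 without CAS 3. For SPI against GEN it was 0.10 ± 0.24, and -0.14 without SPI 4.

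Of the 3 transcription factors, Atf4 and Ddit3 were lowest on CAS 3 and Xbp1 on GEN 1. Xbp1, the leucine zipper factor of the splicing branch, had signals of 3567, 2162, 2064 and 3399 on SPI, 1732, 2089 and 2484 on GEN and 2455, 1907 and 3065 on CAS. SPI 2, SPI 5 and CAS 3 were high and GEN 1 was lowest, so that arrays of SPI spanned most of the range. In log2 signal Xbp1 differed by 0.38 ± 0.23 (SE) for SPI against GEN, 0.16 ± 0.23 for SPI against CAS and -0.23 ± 0.24 for GEN against CAS, with adjusted p-values in limma of 0.672, 0.987 and 0.884. Spliced and unspliced Xbp1 were not told apart here. Without CAS 2 the difference of SPI from CAS was -0.016. For GEN against CAS, leaving out 1 array gave -0.40 (without CAS 2) to -0.058 (without CAS 3).

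Atf4, the factor made when translation is slowed by phosphorylated eIF2, had signals of 10667, 14247, 16169.8 and 12601 on SPI, 13431, 14825 and 11676 on GEN and 13117, 12098 and 9117 on CAS. SPI 4 was the highest array, CAS 3 the lowest, and the diets overlapped. The log2 difference of Atf4 was 0.23 ± 0.16 (SE) for SPI against CAS and 0.23 ± 0.17 for GEN against CAS, with adjusted p-values of 0.987 and 0.846 in limma. Without CAS 3 these were 0.075 and 0.073. The means of SPI and GEN differed by 0.0019 ± 0.16, with a 95% interval of -0.34 to 0.35. Atf4 is regulated chiefly at translation, which these arrays do not measure.

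Ddit3 (CHOP), the factor linked to cell death under lasting stress, had signals of 1359.5, 1631, 2147 and 1320.4 on SPI, 1459, 2313 and 1543 on GEN and 1440.4, 1434 and 1211 on CAS. GEN 3 and SPI 4 were high and the others lay close together. The 3 GEN arrays lay above the CAS arrays, the lowest (1459) by a small margin over the highest CAS array (1440.4). In log2 signal Ddit3 differed from CAS by 0.35 ± 0.21 (SE) on GEN and 0.22 ± 0.20 on SPI, and SPI differed from GEN by -0.13 ± 0.20, with adjusted p-values of 0.841, 0.987 and 0.878 in limma. Without SPI 4 the difference of SPI from CAS was 0.076, and without GEN 3 that of GEN from CAS was 0.14.

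Of the downstream targets, Asns was lowest and Trib3 highest on SPI 4. Asns, the asparagine synthetase, had signals of 305, 245, 199 and 381 on SPI, 281, 343 and 536 on GEN and 350.0, 214 and 282 on CAS. GEN 5 was highest and SPI 4 lowest, and all diets overlapped. Asns had a log2 difference of 0.43 ± 0.29 (SE) for GEN against CAS, -0.44 ± 0.27 for SPI against GEN and -0.012 ± 0.27 for SPI against CAS, with adjusted p-values of 0.846, 0.68 and 0.995 in limma. The difference of GEN from CAS was 0.16 without GEN 5, 0.24 without CAS 2, 0.24 with the actin ratio as a covariate and 0.18 with the replicate number as a block.

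Trib3, a pseudokinase induced by Atf4 and Ddit3, had signals of 189.9, 242, 649 and 205 on SPI, 246, 366 and 161 on GEN and 381, 316 and 205 on CAS on its brightest probe set, which is of a type whose probes other transcripts can share. SPI 4 was highest and GEN 5 lowest. Its log2 difference from CAS was -0.059 ± 0.40 (SE) on SPI and -0.26 ± 0.43 on GEN, and SPI differed from GEN by 0.20 ± 0.40, with adjusted p-values of 0.993, 0.929 and 0.911 in limma. Without SPI 4 the SPI arrays differed from CAS by -0.46, and without GEN 5 the GEN arrays differed from CAS by 0.042. The other 2 probe sets of Trib3 lay below the filter and entered only the fit without a filter, where their adjusted p-values in limma were 0.879 or higher. The brighter of them had signals of 101, 91.7, 286 and 169 on SPI, 117, 139 and 106 on GEN and 201, 132 and 103 on CAS. The dimmer had signals of 11.7, 8.50, 399 and 125 on SPI, 40.1, 204 and 15.8 on GEN and 117, 101 and 9.20 on CAS. Both were also highest on SPI 4, so all 3 Trib3 probe sets marked the same array.

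**Figure D2:**
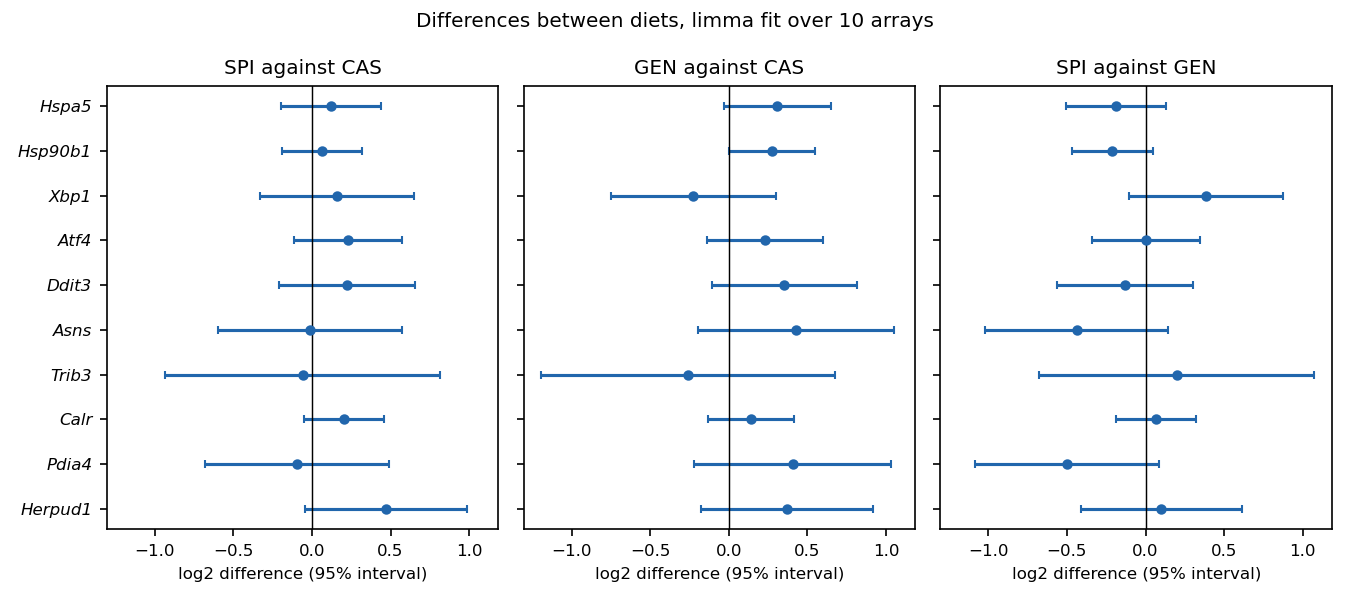
Log2 difference of each member gene (points) with its 95% interval from the limma fit (bars) for the 3 comparisons of diets; positive values are higher in the diet named first. Of the 30 intervals, that of Hsp90b1 for GEN against CAS alone leaves out 0 (0.0014 to 0.55), and its adjusted p was 0.825.

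In direction, 7 of the 10 genes were higher on SPI than on CAS, against 47.7% of all tested probe sets, and the median log2 difference was 0.14 against -0.012 over all. With each array centred on its median, 9 of the 10 genes and 62.1% of probe sets were higher on SPI, so this count moved with the scaling; it was 6 without CAS 2. On GEN, 8 of 10 genes were higher than on CAS, against 47.9% of all, with a median of 0.29 against -0.013. The exceptions were Xbp1 and Trib3. SPI was higher than GEN in 5 of the 10 genes, against 49.2% of all (59.9% with each array centred), with a median of -0.064. The count was 2 of 10 with the actin ratio as a covariate, with the replicate number as a block, without SPI 4 and without GEN 5. For GEN against CAS, the groups did not overlap in 4 of 10 genes (Hspa5, Hsp90b1, Ddit3 and Calr), all higher on GEN, where 11.1% of all probe sets did not overlap and 5.7% did so with GEN higher. For SPI against CAS this held for 1 of 10 genes, Calr, and 4.6% of probe sets (1.78% with SPI higher), and for SPI against GEN for 0 of 10 and 8.5% (4.13% with SPI higher). The first 2 comparisons share the CAS arrays, so their counts are not independent and were not tested.

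Of the marker lists, 0 genes passed an adjusted p of 0.05 in any comparison, but several leaned one way. Of 8 tested luminal genes, 0 were higher on SPI than on CAS, 7 on GEN than on CAS and 0 on SPI than on GEN, with median log2 differences of -0.33, 0.38 and -0.83. Of 7 milk genes, 2, 6 and 0 were higher, with medians of -0.077, 0.88 and -1.18. The summed signal of the 9 luminal genes on the array was 6859 to 13611 on SPI, 16717 to 22243 on GEN and 10675 to 19999 on CAS, and that of the milk genes was 25152 to 62324 on SPI, 74343 to 98203 on GEN and 29741 to 74339 on CAS. All tested macrophage (5), skeletal muscle (4) and fibroblast (6) genes had lower means on SPI and on GEN than on CAS. Their median log2 differences from CAS were -0.74 on SPI and -0.33 on GEN for macrophage, -0.85 on SPI and -0.42 on GEN for muscle and -0.47 on SPI and -0.13 on GEN for fibroblast genes. The mean log2 signal of the muscle genes was 10.30 on CAS 1, 8.05 on CAS 2 and 8.20 on CAS 3. On GEN this mean was 8.36 to 8.49 and on SPI 7.39 to 8.22, so CAS 1 alone lay above the GEN arrays. The summed signal of the macrophage genes was 1688 to 4593 on SPI, 2069 to 5191 on GEN and 2549.5 to 7104 on CAS, that of the muscle genes 1371 to 1899 on SPI, 1773 to 2349.8 on GEN and 1630.2 to 6616 on CAS, and that of the fibroblast genes 32772 to 71909 on SPI, 47815 to 63148 on GEN and 48484 to 92399.6 on CAS. For the basal, adipocyte and endothelial genes, the medians against CAS were 0.15 on SPI and 0.41 on GEN, 0.26 on SPI and -0.37 on GEN, and 0.33 on SPI and 0.024 on GEN. Of the genes of these lists on the array, 0 were listed at 0. Their part in the differences was not tested.

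Across the 10 arrays the members did not vary as one group. Of the 45 pairs of members, 24 correlated positively and 21 negatively, from -0.79 to 0.82. Of these pairs, 0 passed an adjusted p of 0.05, while 11 had an unadjusted permutation p under 0.05. The share over pairs of other genes was not computed, so this count is no result about the members. Asns and Pdia4 had the highest correlation, at Pearson r = 0.82 (permutation p = 0.0042, adjusted 0.117) and Spearman rho = 0.82 (permutation p = 0.00606, adjusted 0.135). Without GEN 5 and SPI 4, the arrays farthest from the median of Asns, r was 0.74. Atf4 and Ddit3 correlated at Pearson r = 0.81 (permutation p = 0.00518, adjusted 0.117) and Spearman rho = 0.82 (permutation p = 0.00586, adjusted 0.135), with r = 0.68 without CAS 3 and SPI 4. Both pairs thus kept a positive r without the 2 arrays farthest from the median of the first gene named. Arrays extreme for the second gene could stay in, as GEN 3, the highest for Ddit3, did.

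The lowest r was that of Trib3 with Pdia4, at Pearson r = -0.79 (permutation p = 0.00996, adjusted 0.119) and Spearman rho = -0.65 (permutation p = 0.0494, adjusted 0.277). It was -0.43 without CAS 1 and SPI 4, so the relation rested in part on those arrays. Trib3 correlated with Atf4 at Pearson r = 0.71 (permutation p = 0.0219, adjusted 0.14) and Spearman rho = 0.77 (permutation p = 0.0122, adjusted 0.135), with r = 0.60 without CAS 3 and SPI 4. Asns, although known as a target of Atf4 as well, had with Atf4 Pearson r = -0.27 (permutation p = 0.45, adjusted 0.579) and Spearman rho = -0.36 (permutation p = 0.315, adjusted 0.472), with r = -0.20 without the same arrays. The 2 targets correlated with each other at Pearson r = -0.59 (permutation p = 0.0742, adjusted 0.20) and Spearman rho = -0.47 (permutation p = 0.177, adjusted 0.363), with r = 0.028 without GEN 5 and SPI 4. With diet means taken out of each array, r was 0.76 for Asns with Pdia4 and 0.78 for Atf4 with Ddit3. It was -0.83 for Trib3 with Pdia4 and 0.87 for Atf4 with Trib3. Higher values within diets were those of Trib3 with Herpud1 (0.91) and Ddit3 with Trib3 (0.88). Xbp1 with Pdia4 had r = 0.85 and the smallest p in permutations within diets (0.00116, adjusted 0.0521). In the 864 exact permutations within diets, 14 of 45 pairs had an unadjusted p under 0.05 and 0 passed the adjustment. Pairs of other genes were not counted here either. The smallest p these permutations can give is 0.00116, or 0.0521 after adjustment for a single pair, so no pair could pass alone.

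**Figure D3:**
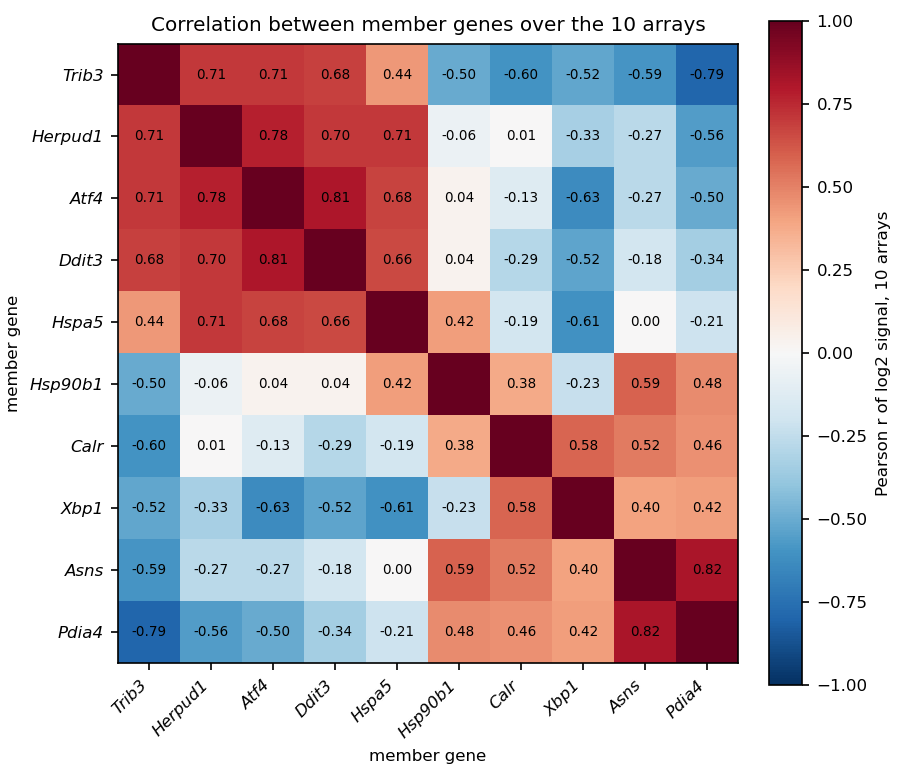
Pearson correlation of log2 signal over the 10 arrays for each pair of member genes (rows and columns; red positive, blue negative, value printed in each cell). Trib3, Herpud1, Atf4, Ddit3 and Hspa5 correlated positively with each other (0.44 to 0.81), as did Asns and Pdia4 with Hsp90b1, Calr and Xbp1 (0.40 to 0.59). Without the 2 arrays farthest from the median of 1 gene of the pair, these ran from 0.13 to 0.75 and from 0.078 to 0.50. Hsp90b1 and Xbp1 correlated at -0.23, and 0 of 45 pairs passed the adjusted test.

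By Pearson r over the 10 arrays, the beta-actin ratio and the epithelial markers correlated most strongly with Pdia4 and Asns. With diet means taken out, r with the log2 actin ratio was -0.77 for Pdia4, -0.76 for Calr, -0.74 for Asns and 0.71 for Herpud1. In 30 relations of the 10 genes with the actin ratio, the luminal mean and the milk mean, 0 passed an adjusted p of 0.05 and 7 had an unadjusted permutation p under 0.05. The share over all other genes was not computed, so the count of 7 is no result about the members. Pdia4 correlated with the log2 actin ratio at Pearson r = -0.80 (permutation p = 0.0055, adjusted 0.0508) and Spearman rho = -0.76 (permutation p = 0.0153, adjusted 0.30), and Asns at Pearson r = -0.78 (permutation p = 0.00876, adjusted 0.0518) and Spearman rho = -0.73 (permutation p = 0.0203, adjusted 0.30). Without GEN 5 and SPI 4 these were -0.39 and -0.45, so they rested in part on those arrays. Trib3 correlated with the log2 actin ratio at Pearson r = 0.67 (permutation p = 0.0351, adjusted 0.15) and Spearman rho = 0.52 (permutation p = 0.133). Its r was 0.054 without GEN 5 and SPI 4, so this relation rested largely on the same arrays. With the luminal mean, Pdia4 had Pearson r = 0.81 (permutation p = 0.00677, adjusted 0.0508) and Spearman rho = 0.64 (permutation p = 0.0546, adjusted 0.30) and Asns Pearson r = 0.77 (permutation p = 0.0104, adjusted 0.0518) and Spearman rho = 0.67 (permutation p = 0.0385, adjusted 0.30), and without GEN 5 and SPI 4 these were 0.29 and 0.41. With the milk mean, Asns had Pearson r = 0.79 (permutation p = 0.00578, adjusted 0.0508) and Spearman rho = 0.62 (permutation p = 0.06, adjusted 0.30) and Pdia4 Pearson r = 0.78 (permutation p = 0.00463, adjusted 0.0508) and Spearman rho = 0.65 (permutation p = 0.0491, adjusted 0.30), and without GEN 5 and SPI 4 these were 0.54 and 0.49. On SPI 4 the summed luminal signal was 6859 and the summed milk signal 25152, the lowest of the 10 arrays in each.

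**Figure D4:**
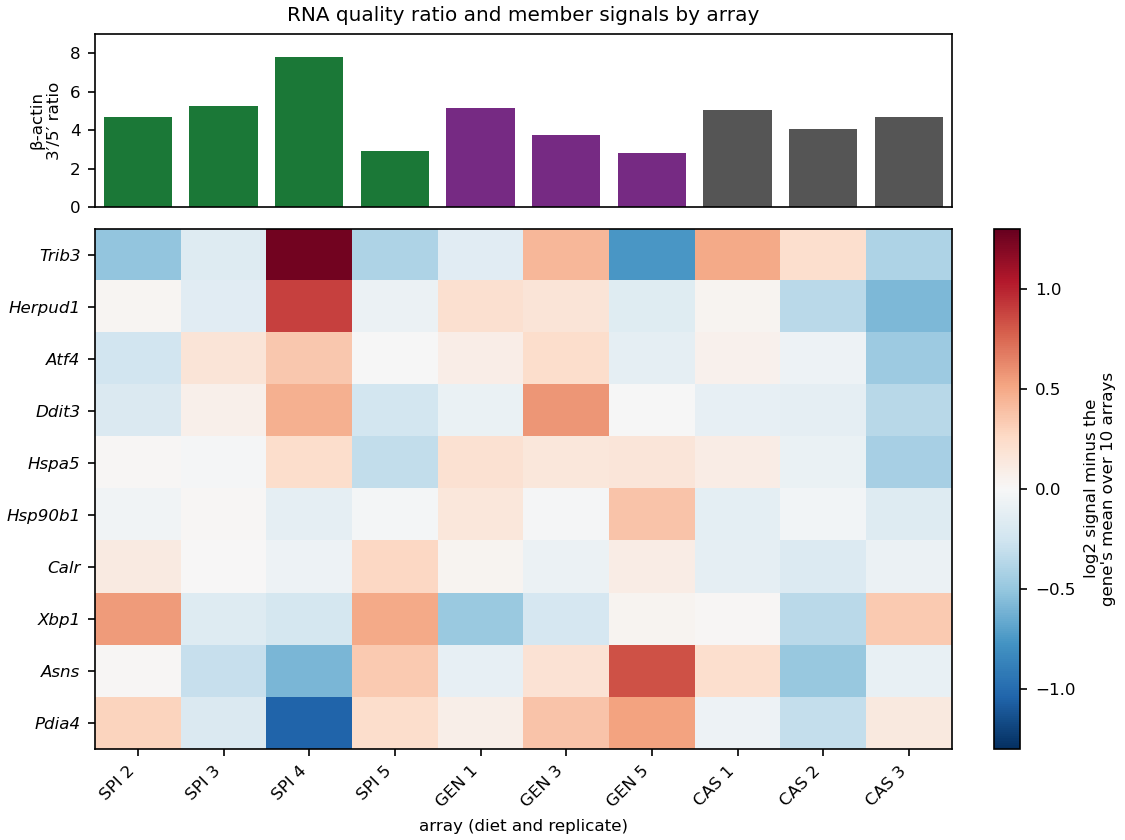
Upper panel: beta-actin 3′/5′ signal ratio of each array (bars from 0, coloured by diet). Lower panel: log2 signal of each member gene minus its mean over the 10 arrays (rows are genes, columns are arrays, red above and blue below the mean). SPI 4, with the highest ratio (7.77), shows Trib3, Herpud1, Ddit3 and Atf4 above and Asns and Pdia4 below their means, and GEN 5, with the lowest ratio (2.83), shows Asns and Pdia4 above and Trib3 below.

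Among 7109 other genes tested, those whose log2 signal over the 10 arrays was most like that of Asns were Pdia3 (r = 0.95), a disulfide isomerase of the ER, the potassium channel gene Kcnk1 (0.94), Ssr4 (0.94), a subunit of the translocon-associated complex, Hadh (0.93) of mitochondrial fatty acid oxidation and the nucleoside transporter Slc29a1 (0.92). For Hspa5 they were the transcription factor Prox1 (r = 0.92), Hps4 (0.92), the general transcription factor subunit Taf5 (0.89), the nuclear matrix gene Matr3 (0.89) and the splicing factor Sf1 (0.88). These are the highest of many values and are given as a description of these arrays.

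Related genes of the pathway, taken as lists beside the members, likewise had 0 genes past an adjusted p of 0.05 in any comparison. Of 17 tested genes for ER folding enzymes and co-chaperones, 10 were higher on SPI than on CAS and 11 on GEN than on CAS, with median log2 differences of 0.069 and 0.063; the medians over all probe sets were -0.012 and -0.013. The smallest p-values for SPI against CAS were those of the thioredoxin family gene Txndc5 (log2 difference -0.34) and the chaperone Hyou1 (0.31). For GEN against CAS they were those of Pdia3 (0.24) and Txndc5 (-0.25). For SPI against GEN, with 8 of 17 genes higher and a median of -0.045, they were those of the isomerases Pdia5 (-0.45) and P4hb (-0.23). Of 10 genes for ER-associated degradation, 4 were higher on SPI and 3 on GEN than on CAS, and 6 were higher on SPI than on GEN, with medians of -0.072, -0.071 and 0.014. The segregase Vcp had log2 differences of 0.25 and 0.23 against CAS on SPI and GEN, and Edem1, a lectin that sorts misfolded glycoproteins, at -0.21 and -0.31. For SPI against GEN, Os9 and Selenos, also of this machinery, had log2 differences of 0.33 and 0.20.

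Of 11 genes for stress sensors and control of eIF2, 4 were higher on SPI than on CAS, 5 on GEN than on CAS and 5 on SPI than on GEN, with medians of -0.018, -0.032 and -0.0043. Eif2ak2, the eIF2 kinase that senses double-stranded RNA, had a log2 difference of 0.66 for GEN against CAS, with an unadjusted p of 0.00296 and an adjusted p of 0.824 in limma, and of -0.50 for SPI against GEN. Eif2ak4, the eIF2 kinase that senses amino acid shortage, had log2 differences of -0.35 on SPI and -0.43 on GEN against CAS. Ppp1r15a, the phosphatase subunit that reverses eIF2 phosphorylation, had a log2 difference of 0.23 for SPI against CAS, and the protease Mbtps1, which cleaves Atf6, one of -0.21 for SPI against GEN. Of 22 tested genes known as Atf4 targets, 15 were higher on SPI and 11 on GEN than on CAS, with medians of 0.077 and 0.000785, and 14 were higher on SPI than on GEN (median 0.12). The serine synthesis gene Phgdh had log2 differences of 0.89 on SPI and 1.51 on GEN, its partner Psat1 one of 0.68 on GEN, and the stress gene Ddit4 one of 0.47 on SPI, all against CAS. For SPI against GEN the amino acid transporter chain Slc3a2 had a log2 difference of -0.23 and the tRNA synthetase Cars1 one of 0.22. Of 18 translocon and signal peptidase genes, 7 were higher on SPI and 8 on GEN than on CAS (medians -0.053 and -0.021), and 4 were higher on SPI than on GEN (median -0.060). The translocon gene Sec62 had log2 differences of -0.29 on SPI against CAS and -0.28 on GEN against CAS, Ssr3, of the translocon-associated complex, one of -0.21 on SPI and Ssr2 one of 0.27 on GEN against CAS, and Ssr2 and the signal peptidase gene Spcs2 had -0.35 and -0.28 for SPI against GEN.

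**Figure D5:**
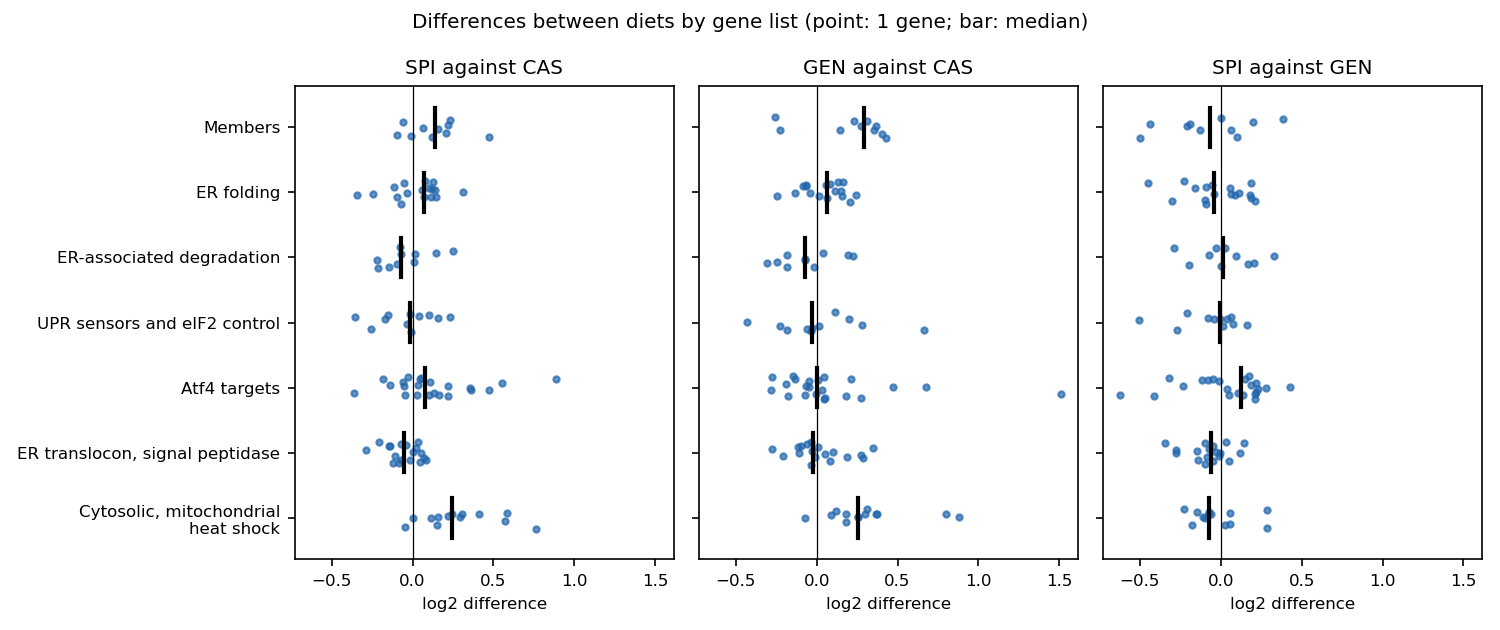
Log2 difference of each tested gene (points) by list, with the list median (bar), in each of the 3 comparisons; UPR stands for unfolded protein response, and points are spread up and down only for legibility. The members' median lay at 0.14 on SPI and 0.29 on GEN against CAS, the heat shock genes' at 0.25 and 0.26, and the other lists' between -0.072 and 0.077.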

How the data were processed

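The authors deposited linear MAS5 intensity values, 1 per probe set and array, per the submitters' processing notes. The software version was not given in the sources used here. Array means after trimming 2% at each end were about 500.1 on every array, so total RNA per array is not visible. The 57 control probe sets were left out of 15923, values under 1 (0.0637%) were set to 1, and values were put on the log2 scale. The dimmest 40% by mean log2 signal (geometric mean under 162) were not tested, which left 9520; 10 of the 12 member probe sets passed. Symbols came from the platform annotation: of 15866 probe sets, 12783 had 1 gene symbol, 312 several and 2771 none. limma 3.58.1 in R 4.3.3 (eBayes with intensity trend) fitted the 3 diets in 1 model over all 10 arrays, with Benjamini-Hochberg adjustment over 9520 probe sets; an adjusted p under 0.05 was a call. The model was tested on simulated data. The brightest probe set stood for a gene in a list. From each list, genes past the adjusted threshold were to be named, otherwise the 2 with the smallest p in a comparison; all members were named, and so were the 5 genes most like Asns and Hspa5. Correlations were tested with 100000 permutations, two-sided. Members, lists and rules were chosen with earlier results of these data known. The number of arrays limits the precision: 95% intervals of the members reached 0.25 to 0.93 log2 units to either side.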

Additional observations from a re-analysis of the deposited data

Results flagged for a closer look

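Herpud1 on SPI 4 had a log2 signal of 11.05, against 10.01 to 10.19 on the other 3 SPI arrays. The gap to the nearest array was 0.8296 of the range of the group, just over Dixon's 95% critical value for 4 arrays. It was the only one of 29 measures of the SPI group to pass this criterion, and chance alone does so in about 1 in 20 groups. The SPI 4 array also had the highest beta-actin ratio (7.77) and GAPDH ratio (2.91) of the 10 arrays. Over the 10 arrays, Herpud1 had with the log2 actin ratio Pearson r = 0.55 (permutation p = 0.0967, adjusted 0.294). Its Spearman rho was 0.43 (permutation p = 0.216, adjusted 0.64), and r was -0.0017 without GEN 5 and SPI 4. Whether either ratio had a part in the high Herpud1 signal on SPI 4 was not tested.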

How the results depend on the processing

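Member genes called stayed at 0 in all 3 comparisons under every alternative tried: no filter or a filter at 20%, log2(signal + 16), quantile normalization, centring on the median, no intensity trend, the actin ratio as a covariate, the replicate block, and each array left out. Of 540 log2 differences recomputed, 507 kept their direction and 33 changed sign, in 10 of 30 member differences. The smallest adjusted p of the 540 in limma was 0.429. Part of the 507 could not change, since the filter and trend settings leave a log2 difference as it is. Leaving out an array of the diet outside a comparison does so too. The 507 are therefore no measure of stability. For SPI against CAS, Asns was 0.060 with quantile normalization, 0.060 with centring and 0.046 with the actin covariate, and Trib3 was 0.013 with centring. With the actin covariate Trib3 was 0.014 in GEN against CAS, and in SPI against GEN Atf4 was -0.088, Trib3 -0.16 and Herpud1 -0.11. With the replicate block, Pdia4 was 0.085 for SPI against CAS, and for SPI against GEN Atf4 was -0.022, Trib3 -0.12 and Herpud1 -0.054. Leaving out each array gave, for SPI against CAS, -0.027 to 0.24 for Hspa5, -0.016 to 0.33 for Xbp1, -0.20 to 0.16 for Asns, -0.46 to 0.14 for Trib3 and -0.25 to 0.19 for Pdia4; for GEN against CAS, -0.55 to 0.042 for Trib3; and for SPI against GEN, -0.093 to 0.11 for Atf4, -0.28 to 0.078 for Ddit3, -0.21 to 0.49 for Trib3 and -0.14 to 0.21 for Herpud1. Over all probe sets the calls ranged from 0 to 2 for SPI against CAS (2 without SPI 2), from 0 to 1 for GEN against CAS (1 without CAS 1) and from 0 to 1 for SPI against GEN (1 without SPI 2, GEN 5, CAS 2 or CAS 3) when an array was left out. The cause was not tested. Same-numbered arrays of 2 diets had correlations of deviations from -0.18 to 0.16, with 2 shared numbers in each comparison, so numbers were not taken as pairs; the block left 0 calls. Of the 45 pairs of members, 0 passed the adjustment without SPI 4, an alternative chosen after seeing the data; with diet means taken out the permutations were too few for a single pair to pass. With 3 or 4 arrays a diet, the lack of calls does not show equal signals, since differences anywhere within an interval given remain compatible with these arrays.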

Other observations

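Heat shock genes of the cytosol and mitochondria, which answer unfolded proteins outside the ER, were set beside the ER chaperones. Of 13 tested genes, 12 were higher on SPI and 12 on GEN than on CAS, against 47.7% and 47.9% of all probe sets, with median log2 differences of 0.25 and 0.26; 5 were higher on SPI than on GEN (median -0.070). In each comparison with CAS, 3 of the 13 had an unadjusted p under 0.05 in limma. Of all probe sets, 4.82% reached it for SPI against CAS and 5.89% for GEN against CAS. Of the 13 genes, 0 passed the adjustment, and the comparisons share the CAS arrays. The inducible Hsp70 gene Hspa1a had signals of 6403 ± 2408 on SPI (SD, n = 4), 6512 ± 816 on GEN (SD, n = 3) and 3592 ± 804 on CAS (SD, n = 3). Its log2 difference from CAS was 0.77 ± 0.28 (SE) on SPI and 0.88 ± 0.30 on GEN, with adjusted p-values of 0.987 and 0.825. The small heat shock protein gene Hspb1 had 5466 ± 1025 on SPI (SD, n = 4), 4448 ± 462 on GEN (SD, n = 3) and 3614 ± 390.4 on CAS (SD, n = 3), and its difference was 0.58 on SPI, with an adjusted p of 0.582. The cytosolic Hsp90 gene Hsp90ab1 had 8155 ± 658 on SPI (SD, n = 4), 9009.5 ± 609 on GEN (SD, n = 3) and 7010.4 ± 674 on CAS (SD, n = 3), and its difference was 0.36 on GEN, with an adjusted p of 0.825. For SPI against GEN, Hspb1 had a log2 difference of 0.29 and Hsp90ab1 one of -0.14.

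The mean log2 signal of the 13 genes was 11.04 to 11.45 on SPI, 11.24 to 11.39 on GEN and 10.89 to 11.08 on CAS. The GEN arrays lay above all CAS arrays, and of the SPI arrays all but SPI 5 did.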
